A study of Mus musculus with 54 samples.

Results

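The testes of sons of fathers exposed to the higher of 2 drug mixtures were compared with the testes of sons of control parents, 3 libraries against 3, out of 54 libraries in the series. The 6 libraries were taken by their labels, and all genes of the testis count table entered, of which 19174 passed a filter on low counts and were tested. The sons of dose 2 fathers came from a dose 2 male mated with a control female. Such a father, a first generation (F1) male, was exposed from 8.5 days post-coitum, through its mother and then through its own drinking water, to ibuprofen at 113 ng/L, 2-hydroxyibuprofen at 225 ng/L, diclofenac at 112 ng/L and ethinyl-estradiol at 45 ng/L. The control parents of the other sons received 0.001% ethanol in their water over the same period. Both groups of sons are second generation (F2) mice, whose own treatment is labelled as none. Males were killed at 10 weeks of age, and the females whose ovaries are named below at 8 weeks. The labels used here give no strain, and they do not tell whether libraries A, B and C of a group had different parents, so each p-value refers to the spread among libraries, which may be technical in part. Where other groups are named, their parents had the same dose 2, or dose 1 with 11.3, 90, 22.5 and 2.25 ng/L of the 4 compounds in that order.

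Ibuprofen and diclofenac block the cyclooxygenases that make prostaglandins, and ethinyl-estradiol is a synthetic oestrogen. In the testis, Leydig cells between the tubules make testosterone from cholesterol, and Sertoli cells inside the tubules nurse the germ cells, which pass through mitosis, meiosis and spermiogenesis. Germ cells supply most of the RNA of an adult testis.

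Libraries A, B and C held 33625371, 34503521 and 36037179 counts in sons of dose 2 fathers and 38038896, 39731635 and 40462794 counts in sons of control parents. Sperm tail and protamine genes, which mark late spermatids, summed to 28000 to 30500 CPM (counts scaled to a common library size) in sons of dose 2 fathers and to 30200 to 33600 CPM in sons of control parents, so the libraries carried the labelled tissue's defining transcripts. On the first principal component of the 6 libraries, with 42.6% of the variance, libraries A, B and C of dose 2 fathers lay at -38.4, -25.2 and -8.99, against 27.3, 4.06 and 41.2 for those of control parents. Control parents library B stood apart from the other controls on the second component, at -33.2 against 0.786 and 21.8.

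Of the 19174 genes, 584 (3.05%) were higher and 435 (2.27%) lower in sons of dose 2 fathers, 5.31% in all, by edgeR's quasi-likelihood test at an adjusted p under 0.05. Most changes were small. The median log2 fold change was 0.54 among the genes that were higher and -0.43 among those that were lower, and 69 and 29 of them changed 2-fold or more. The 3 libraries of one group did not overlap the 3 of the other for 962 of the 1019 genes. Over all tested genes, 14.8% were higher without overlap and 14% were lower without overlap. Long noncoding RNA genes made up 118 of the 584 higher genes (20.2%) and 8 of the 435 lower genes (1.84%), against 11.4% of the genes tested. Protein-coding genes were 424 of the 435 lower genes (97.5%).

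The number of genes depended on single libraries. It was 78, 106 and 1032 without libraries A, B and C of dose 2 fathers, and 81, 3106 and 89 without libraries A, B and C of control parents. In all, 57 genes passed with each of the 6 libraries left out in turn, 32 higher and 25 lower, and all of these also passed under each of the other alternatives tried. Of the 83 genes taken for the largest changes, the smallest p-values or as list members that passed, 13 passed in all 6 of these fits: Klb, Mroh9, Adgrg7, Wfdc8, Cmc1 and Asz1 were higher, and Smoc1, Amotl2, Ctsb, Ccdc42os, Gpx1, Aqp2 and Cx3cr1 lower.

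**Figure D1:**
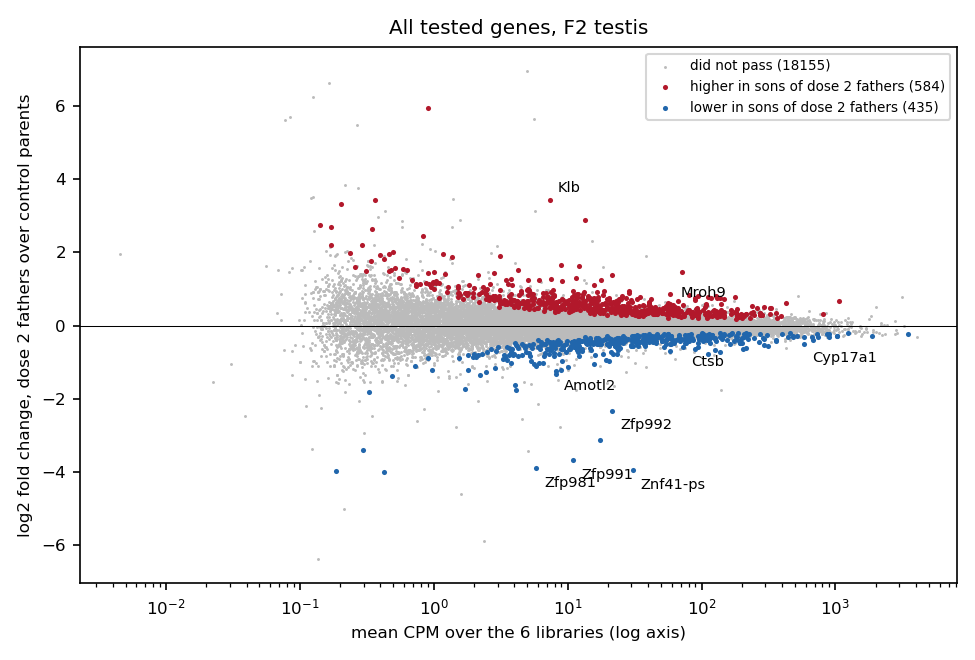
Each point is 1 of the tested genes, with its mean CPM over the 6 libraries on a log axis and its log2 fold change, dose 2 fathers over control parents. The 584 higher genes are red and the 435 lower ones blue, and Klb and 4 zinc-finger genes stand far from 0.

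Klb encodes beta-Klotho, the co-receptor through which FGF19-type hormones and FGF21 act on FGF receptors. Its level was 18.4, 13.5 and 8.36 CPM in libraries A, B and C of sons of dose 2 fathers, against 1.52, 0.747 and 1.49 CPM in sons of control parents. Every library of dose 2 fathers lay above every control library, as the rule for naming genes required. The difference was 3.42 ± 0.32 on the log2 scale (edgeR, adjusted p 0.000236), a 10.7-fold higher level, and Klb passed with any 1 of the 6 libraries left out (highest adjusted p 0.00392). No other of the 19 tested FGF receptors, co-receptors and ligands passed, and the median of that list was -0.12 against -0.0012 over all genes. Klb made up 5.26% of the list, against 3.05% of all genes higher. The control sons were the low group among the F2 males: Klb was at 8.92, 8.76 and 9.49 CPM in sons whose parents were both dose 2, at 10.7, 9.33 and 9.22 CPM in sons of dose 1 fathers and at 10.7, 16.6 and 13.7 CPM in sons of dose 2 mothers. In the parental generation Klb was at 9.76, 10.4 and 9.69 CPM in F1 dose 2 males, against 5.99, 0.958 and 17.0 CPM in F1 control males, whose 3 libraries differed widely. The region around the start of this gene is printed because it had the largest increase among the named genes. It is the RefSeq window on GRCm38.p6, chr5:65348161-65348460, plus strand, with 250 bases before the start in lower case and the 50 bases from the start on in capitals.
Klb: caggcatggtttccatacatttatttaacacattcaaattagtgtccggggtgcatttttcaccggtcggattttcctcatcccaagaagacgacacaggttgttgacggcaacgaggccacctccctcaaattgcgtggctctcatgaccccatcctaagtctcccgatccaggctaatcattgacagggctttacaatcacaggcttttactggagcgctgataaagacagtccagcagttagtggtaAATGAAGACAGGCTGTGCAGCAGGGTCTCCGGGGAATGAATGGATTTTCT

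The steepest falls were in zinc-finger genes. Zfp981, Zfp991 and Zfp992 belong to the family of KRAB zinc-finger proteins, DNA-binding proteins many of which silence transposable elements, and Znf41-ps is annotated as a pseudogene of the same kind. Zfp981 was at 0.768, 0.948 and 0.493 CPM in sons of dose 2 fathers, against 9.73, 16.7 and 6.29 CPM in sons of control parents, a log2 difference of -3.89 ± 0.78 (adjusted p 0.0209). Zfp991 was at 1.45, 1.29 and 2.00 CPM in sons of dose 2 fathers, against 16.6, 32.3 and 11.8 CPM in sons of control parents (-3.67 ± 0.77). Znf41-ps was at 2.33, 4.08 and 4.66 CPM in sons of dose 2 fathers, against 50.8, 86.7 and 34.6 CPM in sons of control parents (-3.95 ± 0.85). All 3 genes were low in each library of dose 2 fathers, and control library B was the highest of the 6 each time. Zfp992 was at 3.34, 8.13 and 9.76 CPM in sons of dose 2 fathers, against 33.0, 49.9 and 23.7 CPM in sons of control parents (-2.32 ± 0.53).

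These zinc-finger genes are close copies, so the counting may split or share their reads and each value is uncertain. Each of the 4 passed in 2 of the 6 fits that left out a library, with highest adjusted p from 0.101 for Zfp981 to 0.133 for Zfp992. Low values were also present elsewhere: Zfp981 was at 0.825 and 0.605 CPM in libraries A and C of sons of dose 1 mothers, and at 7.59 CPM in their library B. In F1 dose 2 males Zfp981 was at 0.689, 3.25 and 5.84 CPM, against 7.28, 7.08 and 6.82 CPM in F1 control males. A further 3 zinc-finger genes were among the largest increases. Zfp987 was at 10.4, 10.1 and 11.8 CPM in sons of dose 2 fathers, against 4.33, 2.56 and 6.37 CPM in sons of control parents (1.28 ± 0.26, adjusted p 0.014), and passed in 3 of the 6 fits. Zfp33b and Zfp493 differed by 1.38 ± 0.35 and 1.95 ± 0.53 and passed in 1 and 2 of the 6 fits.

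**Figure D2:**
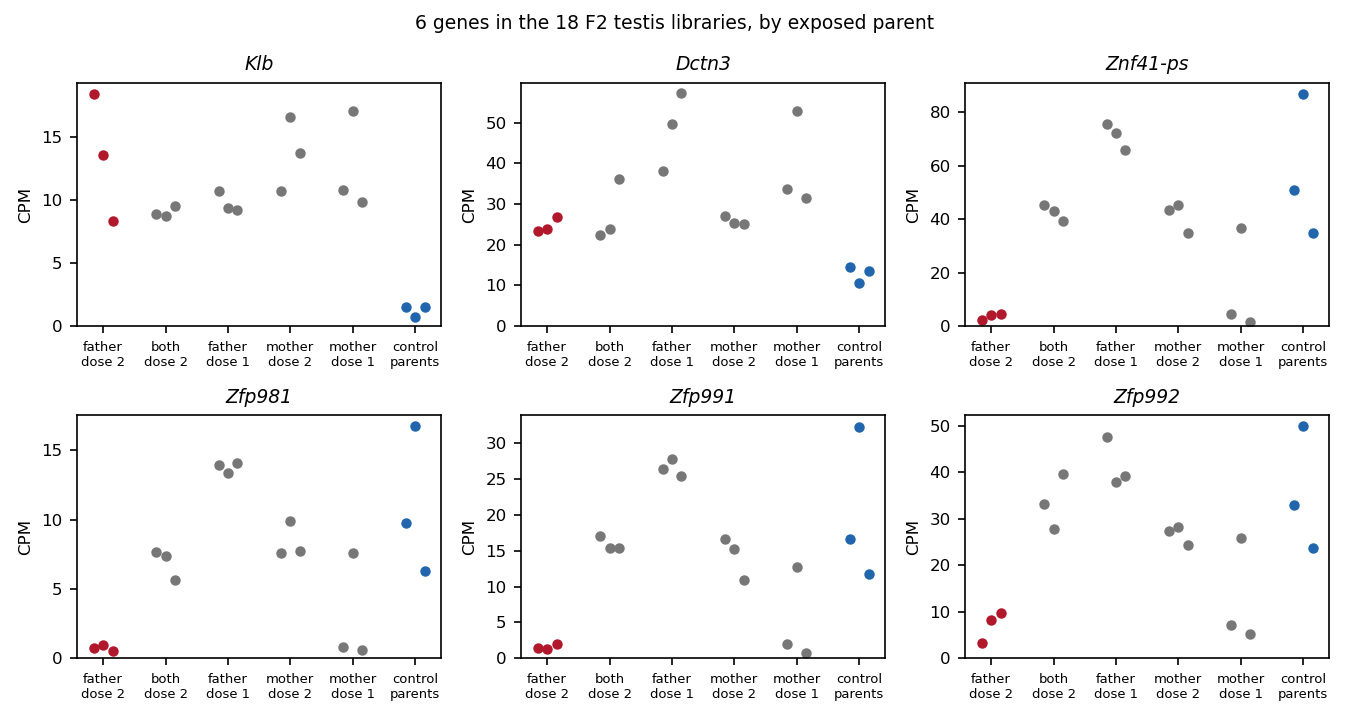
CPM of 6 genes in the 18 F2 testis libraries, grouped by which parent was exposed, with 1 point a library, sons of dose 2 fathers in red, sons of control parents in blue and the other crosses in grey. Klb and Dctn3 are lowest in sons of control parents, and the 4 zinc-finger genes are low in sons of dose 2 fathers and in 2 of the 3 libraries of sons of dose 1 mothers.

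The other large increases were in genes of varied function. Cmc1, an assembly factor of cytochrome c oxidase, was at 8.98, 9.85 and 6.85 CPM in sons of dose 2 fathers, against 3.94, 3.14 and 3.79 CPM in sons of control parents (1.24 ± 0.22 on the log2 scale, adjusted p 0.00721). Wfdc8, a WAP-domain protein of a family of protease inhibitors, was at 4.17, 3.33 and 1.86 CPM in sons of dose 2 fathers, against 1.41, 0.996 and 1.16 CPM in sons of control parents (1.39 ± 0.24). Both passed with any 1 library left out. Muc6, a gel-forming mucin, was higher by 1.13 ± 0.23, and Bdh2, a short-chain dehydrogenase, by 1.15 ± 0.32. Serpina7, the thyroxine-binding globulin, was higher by 1.22 ± 0.35. The claudin family gene Cldn34d (1.65 ± 0.44), the antisense gene Cd55os (1.51 ± 0.28) and Rn7sk, the 7SK small nuclear RNA that holds back the elongation factor P-TEFb (1.46 ± 0.34), have copies or overlapping partners and are uncertain. Rn7sk, of which many copies lie in the genome, was at 86.7, 103 and 127 CPM in sons of dose 2 fathers, against 39.1, 52.6 and 23.7 CPM in sons of control parents. With a library left out, Cd55os passed in 3 of 6 fits, Muc6 in 2, and Bdh2, Serpina7, Cldn34d and Rn7sk in 1.

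Among the larger decreases, Amotl2, a junction protein that binds the Hippo pathway effector YAP, was at 5.14, 4.08 and 5.32 CPM in sons of dose 2 fathers, against 12.0, 9.93 and 12.6 CPM in sons of control parents (-1.25 ± 0.17, adjusted p 0.00173). Aqp2, a water channel, was at 5.91, 4.71 and 5.54 CPM in sons of dose 2 fathers, against 14.5, 8.81 and 14.2 CPM in sons of control parents (-1.22 ± 0.19). Both were lower with any 1 library left out. Pdpn, the membrane glycoprotein podoplanin, was at 1.09, 0.948 and 1.70 CPM in sons of dose 2 fathers, against 2.87, 3.46 and 3.21 CPM in sons of control parents (-1.35 ± 0.24). Ccr4, a chemokine receptor of T cells, fell by 1.15 ± 0.23 and Slc18a3, the vesicular acetylcholine transporter, by 1.22 ± 0.31. Ceacam10 fell by 1.28 ± 0.33, Klk1b24 by 1.32 ± 0.36 and Ccdc42os, which lies antisense to Ccdc42, by 1.73 ± 0.25, and these 3 have close relatives or an overlapping partner. With a library left out, Ccr4 passed in 5 of 6 fits, Pdpn in 4, Ceacam10 in 2 and Slc18a3 and Klk1b24 in 1.

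The smallest p-values belonged to genes with tight replicates as well as to Klb and Amotl2. Smoc1, a calcium-binding matrix protein, was at 18.6, 18.7 and 19.6 CPM in sons of dose 2 fathers, against 28.9, 29.1 and 27.8 CPM in sons of control parents (-0.59 ± 0.07, adjusted p 0.000682). Mroh9, a HEAT-repeat protein, was at 75.2, 74.3 and 68.3 CPM in sons of dose 2 fathers, against 48.2, 50.0 and 49.5 CPM in sons of control parents (0.56 ± 0.08). For both genes the gap between the groups was wider than the range within either. Ctsb, the lysosomal protease cathepsin B, was at 56.1, 57.4 and 60.7 CPM in sons of dose 2 fathers, against 92.0, 86.8 and 84.9 CPM in sons of control parents (-0.60 ± 0.08). Adgrg7, an adhesion G protein-coupled receptor, was at 19.6, 16.5 and 16.4 CPM in sons of dose 2 fathers, against 10.8, 7.49 and 9.48 CPM in sons of control parents (0.92 ± 0.13).

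**Figure D3:**
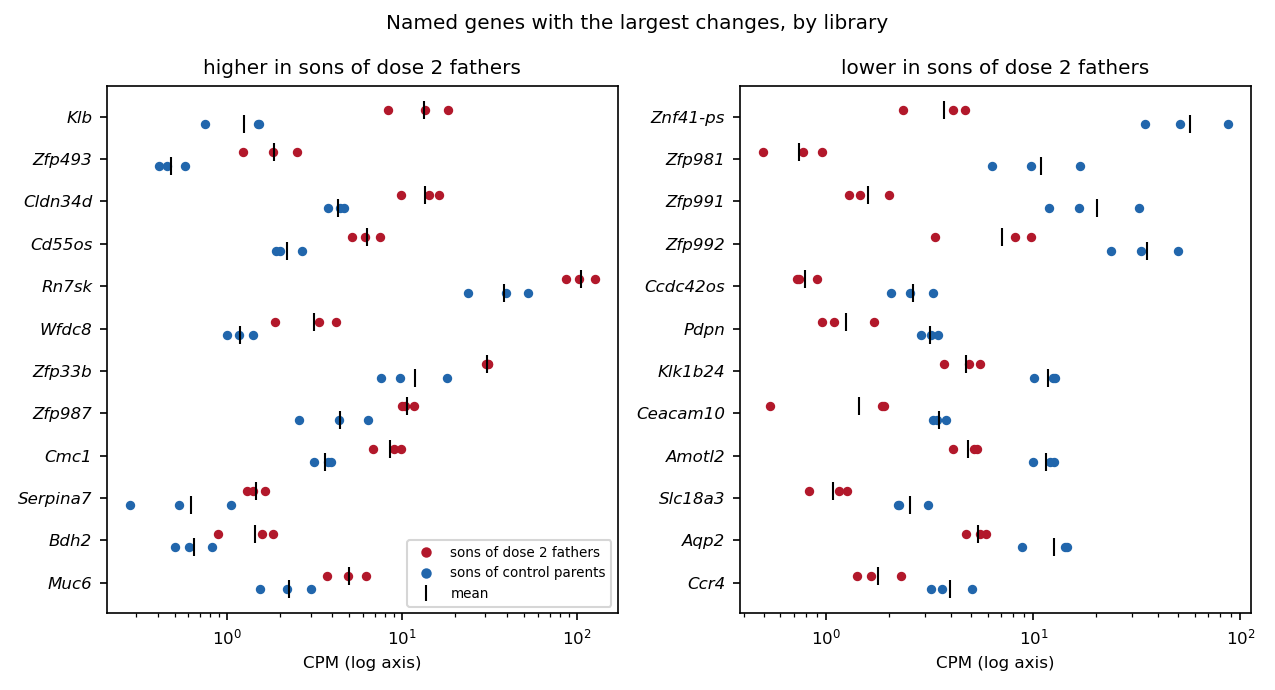
CPM on a log axis of the 12 named genes with the largest increases and the 12 with the largest decreases, with 1 point a library, a black tick at the mean, and sons of dose 2 fathers in red above sons of control parents in blue. The libraries of the groups do not overlap for any of these genes, which the naming rule required.

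Genes of Leydig cell steroidogenesis were lower. Of 26 tested members of that list, 7 passed as lower and none as higher, 26.9% against 2.27% of all genes, and the median log2 fold change was -0.44 against -0.0012 over all genes. In all, 25 of the 26 lay below 0. Their summed level was 1690 to 1730 CPM in sons of dose 2 fathers, against 2280 to 2380 CPM in sons of control parents. In whole testis, fewer Leydig cells and less RNA per Leydig cell cannot be told apart. Nr5a1 encodes SF-1, the nuclear receptor that switches on steroidogenic genes. It was at 31.1, 29.4 and 31.3 CPM in sons of dose 2 fathers, against 47.0, 41.0 and 48.3 CPM in sons of control parents (-0.57 ± 0.12, adjusted p 0.0138). Cyp11a1, the enzyme that cuts the side chain of cholesterol, was at 148, 156 and 177 CPM in sons of dose 2 fathers, against 237, 247 and 260 CPM in sons of control parents (-0.63 ± 0.14). Cyp17a1, the next cytochrome on the way to androgens, was at 449, 497 and 506 CPM in sons of dose 2 fathers, against 672, 733 and 643 CPM in sons of control parents (-0.50 ± 0.10). None of these genes overlapped between the groups. Hsd17b3, which makes testosterone from androstenedione, was at 47.0, 44.3 and 43.1 CPM in sons of dose 2 fathers, against 71.3, 78.9 and 65.9 CPM in sons of control parents (-0.68 ± 0.17). Fdxr, which feeds electrons to Cyp11a1, fell by 0.43 ± 0.11 and the kallikrein Klk1 by 0.78 ± 0.18. Klk1b24 was the other member that passed.

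The Leydig count rested on several libraries: it was 0, 1 and 6 without libraries A, B and C of dose 2 fathers, and 0, 10 and 1 without libraries A, B and C of control parents. Cyp17a1 passed in 4 of these 6 fits (highest adjusted p 0.0721), Nr5a1, Cyp11a1, Klk1 and Fdxr in 2, and Hsd17b3 and Klk1b24 in 1. Star, which brings cholesterol into mitochondria, did not pass (-0.16, adjusted p 0.404). Sons of dose 1 mothers were not tested directly, and their mean log2 CPM over the Leydig list was 4.999, 5.276 and 4.948. It was 4.753, 4.766 and 4.772 in sons of dose 2 fathers and 5.261, 5.299 and 5.216 in sons of control parents. In direct tests, the Leydig list had a median log2 difference of 0.0016 against sons of dose 2 mothers and 0.03 against sons of dose 1 fathers. Against sons whose parents were both dose 2 it was 0.07. In these direct tests 0, 2 and 0 of the 26 members passed. Star was higher in sons of dose 2 fathers than in sons of dose 1 fathers, at 173 against 118 CPM on average (0.55 ± 0.11, adjusted p 0.0192). Fdxr, the other member that passed there, was lower, at 27.2 against 37.1 CPM on average (-0.45 ± 0.11, edgeR, adjusted p 0.0429).

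The start regions of 2 of these genes that fell together are printed from the RefSeq windows on GRCm38.p6, with the 50 bases from the start on in capitals. Cyp11a1 is at chr9:57997774-57998073 on the plus strand and Hsd17b3 at chr13:64089152-64089451 on the minus strand. Both strands of each window were searched for AAGGTCA and AAGGCCA, which are the binding letters of NR5A1-type receptors. Neither printed window holds them, nor does that of Klb. Only the first window listed for each gene was searched, and Cyp11a1 has 2, so its other window was not searched. Of 19 listed Leydig genes with a window, 3 hold a match in the first (Klk1, Klk1b21 and Sult1e1). The share was 9.31% of 15045 tested genes with a window and 10.5% of all 27025 genes with a window.
Cyp11a1: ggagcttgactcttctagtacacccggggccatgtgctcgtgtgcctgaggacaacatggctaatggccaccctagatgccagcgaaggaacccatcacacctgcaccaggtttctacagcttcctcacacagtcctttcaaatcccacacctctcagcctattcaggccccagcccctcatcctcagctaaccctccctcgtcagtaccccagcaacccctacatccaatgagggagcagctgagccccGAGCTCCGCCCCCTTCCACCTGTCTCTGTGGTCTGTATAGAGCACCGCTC
Hsd17b3: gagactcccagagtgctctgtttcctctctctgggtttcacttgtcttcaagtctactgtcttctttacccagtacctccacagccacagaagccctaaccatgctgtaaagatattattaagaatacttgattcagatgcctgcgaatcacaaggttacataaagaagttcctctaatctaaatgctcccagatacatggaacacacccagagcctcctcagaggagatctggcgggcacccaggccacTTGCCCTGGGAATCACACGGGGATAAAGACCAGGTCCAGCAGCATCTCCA

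**Figure D4:**
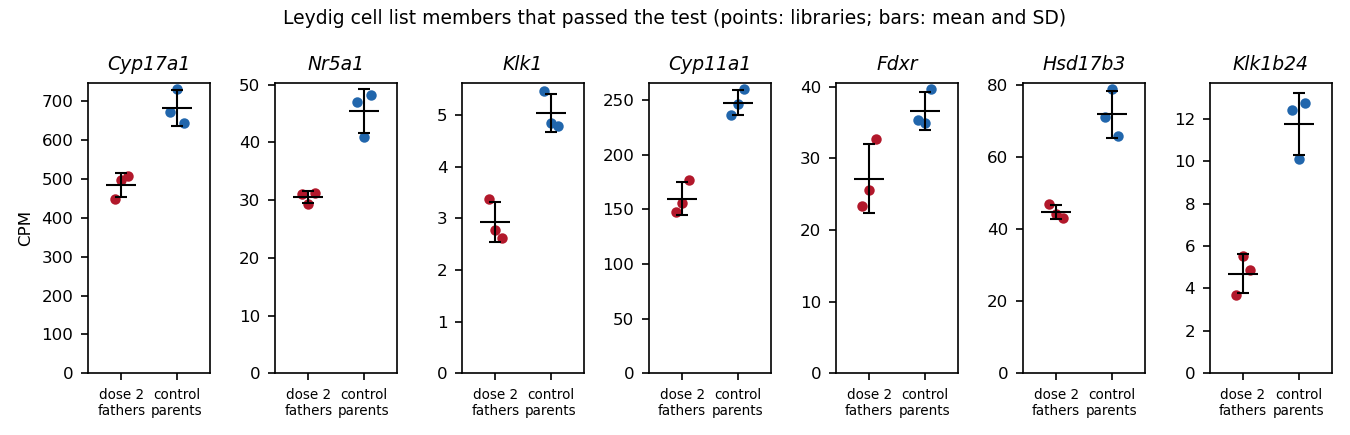
CPM of the 7 Leydig list members that passed the test, with 1 point a library and black bars for the mean and SD, sons of dose 2 fathers left and sons of control parents right. The 3 libraries of dose 2 fathers lie below the 3 control libraries for each gene.

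Fewer members passed in the other somatic cell lists. Of 26 Sertoli cell genes, 4 were lower (15.4%, against 2.27% of all genes) and none higher, with a median of -0.16. Gata4, a transcription factor of the somatic gonad, was at 21.8, 20.8 and 21.2 CPM in sons of dose 2 fathers, against 31.0, 25.6 and 28.3 CPM in sons of control parents (-0.41 ± 0.09, adjusted p 0.0203). Inha, the inhibin alpha subunit, was at 54.9, 56.6 and 64.1 CPM in sons of dose 2 fathers, against 89.4, 61.6 and 85.1 CPM in sons of control parents (-0.43 ± 0.12). Clu, which encodes clusterin, fell by 0.38 ± 0.10 and Amhr2, the receptor of anti-Müllerian hormone, by 0.36 ± 0.10. Inha and Amhr2 were also the 2 of 20 genes to pass in the inhibin, activin and AMH family (10%, against 2.27% of all genes). Control library B lay near the libraries of dose 2 fathers for 3 of the 4 Sertoli genes that passed. Inha and Amhr2 overlapped between the groups, and Clu was at 613 CPM in control library B, against 857 and 850 CPM in the other controls. The summed Sertoli level showed the same, with 1610, 1600 and 1630 CPM in sons of dose 2 fathers, against 2000, 1610 and 2060 CPM in sons of control parents. Without libraries A, B and C of dose 2 fathers 0, 0 and 2 Sertoli genes passed, and without libraries A, B and C of control parents 0, 8 and 0. All 13 androgen-responsive genes of Sertoli cells lay below 0. Of them 1 passed (7.69%, against 2.27% of all genes lower), Gpd1, a glycerol-3-phosphate dehydrogenase (-0.48 ± 0.12). Gpd1 lost its call in 5 of the 6 fits without a library (highest adjusted p 0.189).

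Macrophage genes gave 2 lower and none higher of 20 (10%, against 2.27% of all genes lower), with a median of -0.22. Cx3cr1, the fractalkine receptor, was at 4.26, 3.48 and 3.15 CPM in sons of dose 2 fathers, against 7.61, 8.71 and 6.34 CPM in sons of control parents (-1.06 ± 0.19, adjusted p 0.0061). Csf1r, the receptor of the growth factor that macrophages need, was at 9.13, 9.62 and 11.2 CPM in sons of dose 2 fathers, against 13.9, 12.5 and 15.1 CPM in sons of control parents (-0.47 ± 0.12). Cx3cr1 passed in all 6 fits without a library and Csf1r in 2, and the list count was 1, 1 and 3 without libraries A, B and C of dose 2 fathers and 1, 2 and 1 without libraries A, B and C of control parents. The summed macrophage level was 354 to 414 CPM in sons of dose 2 fathers, against 418 to 488 CPM in sons of control parents. Of 13 peritubular and smooth muscle genes only Myl9, a myosin light chain, passed (-0.52 ± 0.11), in 2 of the 6 fits without a library. Myl9 made up 7.69% of that list, against 2.27% of all genes lower. None of 15 endothelial genes passed, 14 of them lay below 0, and they summed to 78.3 to 90.1 CPM in sons of dose 2 fathers, against 99.5 to 112 CPM in sons of control parents. Of 10 lymphocyte genes Cd8a, the CD8 alpha chain, was higher (1.5 ± 0.43), 10% of the list against 3.05% of all genes. Cd8a had a mean of 0.944 CPM in sons of dose 2 fathers and 0.328 CPM in sons of control parents. It passed in 1 of the 6 fits without a library.

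Markers of tissue around the testis were near the floor or did not pass. The 10 tested epididymal genes summed to 166 to 177 CPM in sons of dose 2 fathers and to 146 to 167 CPM in sons of control parents, with none that passed. Of 8 tested adipocyte genes none passed, and 7 lay above 0 with a median of 0.85. They summed to 13.9 to 17.7 CPM in sons of dose 2 fathers and to 13.4 to 14.8 CPM in sons of control parents. Their part in the results was not tested. The 2 tested erythrocyte genes summed to 14 to 18.3 CPM in sons of dose 2 fathers and to 17.5 to 20.2 CPM in sons of control parents.

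Germ cell lists changed in few members, and those were mostly higher. Of 27 meiotic genes 3 were higher (11.1%, against 3.05% of all genes), with a median of 0.17 and 21 members above 0. Sycp1, the transverse filament of the synaptonemal complex, was at 193, 165 and 142 CPM in sons of dose 2 fathers, against 95.8, 131 and 106 CPM in sons of control parents (0.59 ± 0.12, adjusted p 0.0123). Hormad1, which marks unpaired chromosome axes, differed by 0.37 ± 0.08 and Msh4, a crossover factor, by 0.43 ± 0.10. Control library B was the highest control for all 3. The meiotic count was 0, 0 and 3 without libraries A, B and C of dose 2 fathers and 0, 9 and 0 without libraries A, B and C of control parents, and it was 0 when only the 6 libraries entered the fit. Of 19 piRNA pathway genes 2 were higher (10.5%, against 3.05% of all genes). Asz1, needed for piRNA formation at mitochondria, was at 27.8, 27.8 and 28.3 CPM in sons of dose 2 fathers, against 19.2, 22.6 and 17.0 CPM in sons of control parents (0.51 ± 0.09, adjusted p 0.00578), and passed without any 1 library. Tex15, a partner of the piRNA-guided silencing of transposons, differed by 0.59 ± 0.13.

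None of 20 spermatogonial genes passed. Ddx4 (0.17, adjusted p 0.166) and Etv5 (-0.20, adjusted p 0.185) had the smallest p. Of 24 round spermatid genes Tssk5, a testis-specific serine kinase, was higher (0.45 ± 0.11), and of 20 elongating spermatid genes Odf2, a sperm tail protein, was lower (-0.23 ± 0.07). Tssk5 passed in 2 and Odf2 in 1 of the 6 fits without a library. They made up 4.17% and 5% of their lists, against 3.05% of all genes higher and 2.27% lower. None of 18 axonemal dynein genes passed.

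The next lists cover pathways that the drugs act on. In order, 0%, 0% and 7.14% of their tested members passed, against 5.31% of all genes. With 8 to 14 members a list, these shares say little. None of 13 prostaglandin synthesis genes passed, with a median of -0.26. Ptges2, a prostaglandin E synthase, was at 5.50, 6.81 and 6.96 CPM in sons of dose 2 fathers, against 9.52, 7.49 and 9.35 CPM in sons of control parents (-0.45, adjusted p 0.0628). Ptges, the inducible synthase of the same product, had a log2 fold change of -0.51 (adjusted p 0.154). None of 8 prostanoid receptors and transporters passed. Of 14 oestrogen receptors and responsive genes Ctsd, the lysosomal protease cathepsin D, was lower (-0.37 ± 0.10, adjusted p 0.0455), and it lost its call in 5 of the 6 fits without a library (highest adjusted p 0.198). Esr1, the oestrogen receptor alpha, had a log2 fold change of -0.33 (adjusted p 0.206).

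Antioxidant genes were lower in 6 of 29 members (20.7%, against 2.27% of all genes) and higher in none, with a median of -0.30. Gpx1, which reduces peroxides with glutathione, was at 16.9, 17.5 and 20.3 CPM in sons of dose 2 fathers, against 30.9, 27.6 and 29.0 CPM in sons of control parents (-0.68 ± 0.10, adjusted p 0.00228). Sod3, the extracellular superoxide dismutase, was at 27, 27.4 and 26.9 CPM in sons of dose 2 fathers, against 40.3, 32.2 and 46.4 CPM in sons of control parents (-0.55 ± 0.11). Cat, the catalase gene, fell by 0.56 ± 0.13, and Keap1, the sensor that holds NRF2 back, by 0.33 ± 0.09. The other members that passed were Prdx3 and Gstm1. Gpx1 alone of the 6 passed in every fit without a library. The list count was 1, 1 and 3 without libraries A, B and C of dose 2 fathers and 1, 8 and 1 without libraries A, B and C of control parents.

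Fatty acid oxidation and lipid storage gave 5 lower and 1 higher of 27 (22.2% in either direction, against 5.31% of all genes), with a median of -0.23. The lower genes with the smallest p were Eci1 (-0.74 ± 0.15), Acadm (-0.42 ± 0.11), Hadh (-0.35 ± 0.09) and Acadl (-0.36 ± 0.10), which are enzymes of mitochondrial beta-oxidation. Pnpla2, the lipase that starts the breakdown of stored fat, was lower too. Ppara, the nuclear receptor that switches on these genes in liver, was at 15.2, 11.9 and 10.4 CPM in sons of dose 2 fathers, against 8.99, 8.84 and 9.30 CPM in sons of control parents (0.47 ± 0.13, adjusted p 0.045). The list count was 0, 0 and 3 without libraries A, B and C of dose 2 fathers and 1, 13 and 0 without libraries A, B and C of control parents. In cholesterol synthesis and uptake, Fdps (-0.30 ± 0.07) and Ebp (-0.56 ± 0.14) were lower and Idi1 higher (1.5 ± 0.42) of 24, all 3 being enzymes of the pathway. They made up 12.5% of the list, against 5.31% of all genes. Idi1 averaged 0.463 CPM in sons of dose 2 fathers and 0.162 CPM in sons of control parents, and the list count was 0, 0 and 1 without libraries A, B and C of dose 2 fathers and 0, 5 and 0 without libraries A, B and C of control parents.

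In the extracellular matrix list 3 of 30 members were lower (10%, against 2.27% of all genes), the basement membrane genes Lama4 (-0.53 ± 0.14), Col18a1 (-0.48 ± 0.13) and Col4a2 (-0.44 ± 0.12). That count was 0, 0 and 8 without libraries A, B and C of dose 2 fathers and 0, 8 and 0 without libraries A, B and C of control parents, and 0 when only the 6 libraries entered the fit. Of 28 immediate early genes, which are induced within minutes of a stimulus, Junb (-1.03 ± 0.25), Ier2 (-0.82 ± 0.21) and Egr1 (-0.96 ± 0.27) passed as lower, 10.7% against 2.27% of all genes. All 3 overlapped between the groups. Junb was at 4.05, 3.45 and 4.47 CPM in sons of dose 2 fathers, against 8.35, 4.26 and 11.9 CPM in sons of control parents, with control library B among the values of dose 2 fathers. The immediate early count was 0, 0 and 2 without libraries A, B and C of dose 2 fathers, 0, 6 and 0 without libraries A, B and C of control parents, and 0 when only the 6 libraries entered the fit. The heat shock genes Hsp90ab1 (-0.34 ± 0.06) and Bag3 (-0.27 ± 0.07) and the clock gene Bhlhe40 (-0.75 ± 0.16) were lower, in lists of 17 and 18. Without a library they passed in 2, 1 and 2 of the 6 fits. The heat shock and clock lists had 11.8% and 5.56% of members lower, against 2.27% of all genes.

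Among imprinted genes, Kcnq1ot1, the long noncoding RNA expressed from the paternal chromosome, was the only one to pass of 22 paternally expressed genes (4.55%, against 3.05% of all genes higher). It was at 279, 220 and 172 CPM in sons of dose 2 fathers, against 122, 154 and 111 CPM in sons of control parents (0.79 ± 0.21, adjusted p 0.043). Kcnq1ot1 overlaps Kcnq1 in antisense and is uncertain, and it passed in 2 of the 6 fits without a library (highest adjusted p 0.205). Of 22 genes listed as maternally expressed, Gnas (-0.41 ± 0.07) and Cd81 (-0.30 ± 0.08) were lower (9.09%, against 2.27% of all genes). Counts per gene do not tell the parental copies apart. Gnas passed in 4 of the 6 fits and Cd81 in 1. Of 19 DNA methylation genes Mbd4, a glycosylase that removes thymine from CpG mismatches, was higher (0.45 ± 0.10), in 2 of the 6 fits. Mbd4 made up 5.26% of that list, against 3.05% of all genes higher. None of 20 interferon-stimulated genes passed. Of 80 cytosolic ribosomal protein genes 1 passed, Rpl10 (-0.40 ± 0.08), which was 1.25% against 2.27% of all genes lower. In that list 69 lay below 0 and the median was -0.16. Dhrs3, a retinal reductase, was the only one of 21 retinoic acid genes to pass (4.76%, against 2.27% of all genes lower). Its log2 fold change was -0.61 ± 0.14, and it passed in 2 of the 6 fits. In total 57 different list members passed, 13 higher and 44 lower, and 4 to 145 did with 1 library left out. Over all genes 3.05% were higher and 2.27% lower, and the share of all list members together was not worked out.

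**Figure D5:**
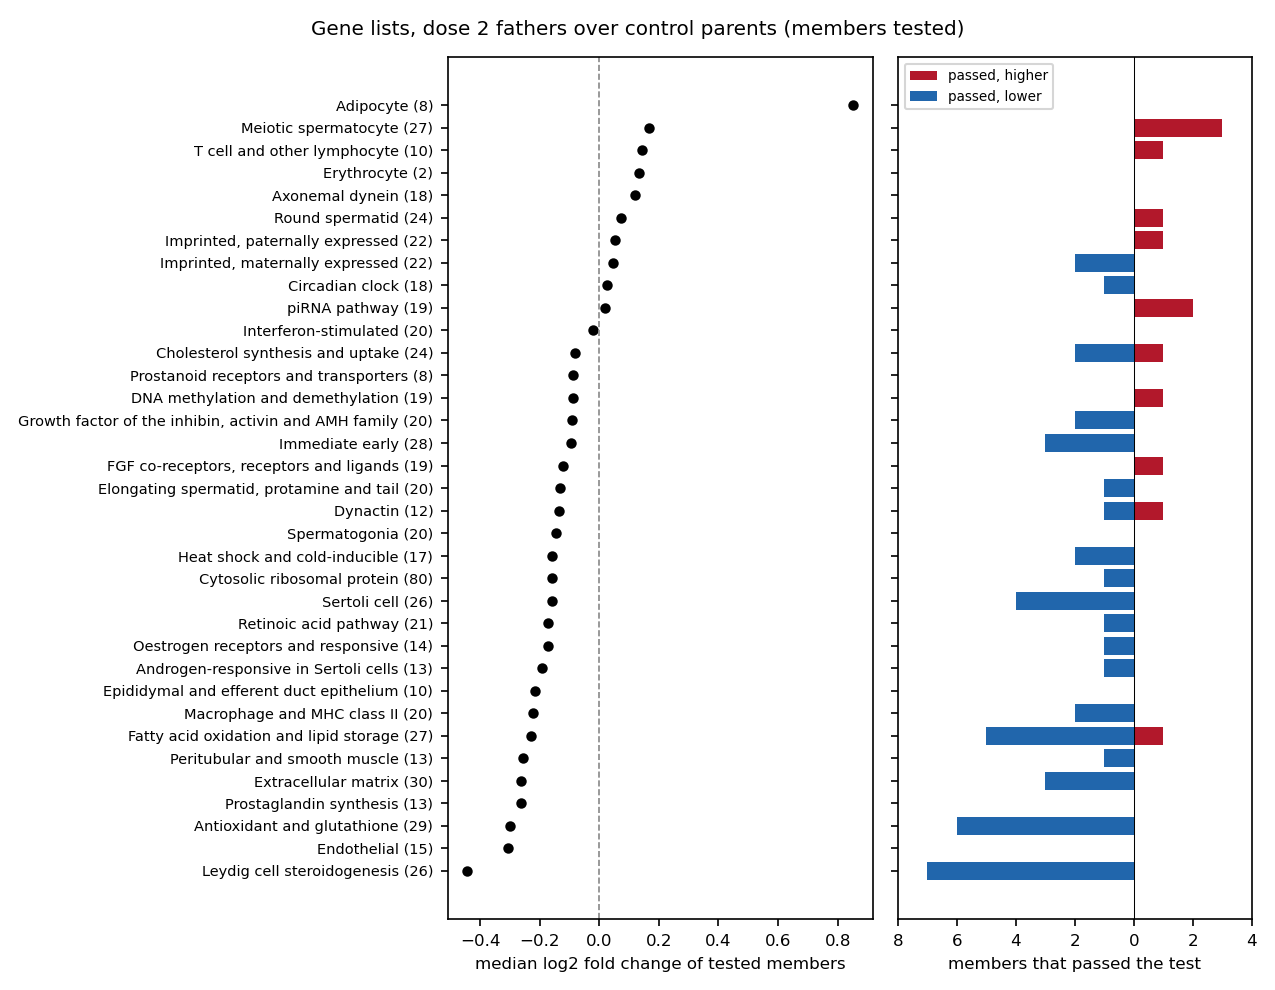
Median log2 fold change of the tested members of 35 gene lists (left, with the median of all genes dashed) and the number of members that passed as higher (red) or lower (blue) (right), dose 2 fathers over control parents, with the number tested in brackets. Leydig genes have the lowest median, -0.44, and the most members that passed, 7.

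Some genes that passed lie side by side. In RefSeq gene order, 139 of them stood within 2 places of another in 65 runs, and 54 of these runs moved in 1 direction. Only 2 runs held 4 or more genes. With 5.31% of all tested genes passing, some would be neighbours in any case. How many runs would arise that way was not tested. Cntfr, Dctn3, Galt and Ccl27a lay in 1 such run and were all higher. Dctn3, a dynactin subunit, was at 23.4, 23.8 and 26.9 CPM in sons of dose 2 fathers, against 14.4, 10.7 and 13.6 CPM in sons of control parents (0.94 ± 0.22, adjusted p 0.0268). Cntfr, the receptor of ciliary neurotrophic factor, was at 24.6, 20.4 and 17.0 CPM in sons of dose 2 fathers, against 13, 11.9 and 13 CPM in sons of control parents (0.71 ± 0.12). The chemokine gene Ccl27a differed by 0.78 ± 0.13 and Galt, an enzyme of galactose breakdown, by 0.88 ± 0.23. Overlapping transcripts and the copies known for Ccl27a make these 4 uncertain. Dctn3 passed in 1 of the 6 fits without a library (highest adjusted p 0.11), and Cntfr and Ccl27a in all 6. Dctn1, the large dynactin subunit, was lower (-0.42 ± 0.10), with overlap between the groups and in 2 of the 6 fits. Dctn3 and Dctn1 were the members to pass of 12 dynactin genes (16.7%, against 5.31% of all genes). A second run, Zfp994, Gm7072, Zfp944 and Zfp946, was higher by 0.48, 0.43, 0.49 and 0.57. Zfp992 and Zfp981 formed a run with 1700095A21Rik, all 3 lower.

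The sons of control parents also lay apart from the other exposed crosses for several of these genes, in comparisons that share the control libraries. Amotl2 averaged 4.85 ± 0.67 CPM in sons of dose 2 fathers, 5.95 ± 1.48 CPM in sons of dose 2 mothers, 5.66 ± 0.57 CPM in sons of dose 1 fathers and 7.02 ± 0.22 CPM in sons whose parents were both dose 2, against 11.5 ± 1.41 CPM in sons of control parents (SD, n = 3 each). Ctsb was at 55.5, 57.4 and 53.5 CPM in sons whose parents were both dose 2 and at 67.6, 71.8 and 69.2 CPM in sons of dose 1 fathers, below the lowest control library in each case. Mroh9 was at 62.9, 65.7 and 70.9 CPM in sons whose parents were both dose 2 and at 68.5, 61.5 and 62.0 CPM in sons of dose 2 mothers, above the highest control library. Adgrg7 did otherwise, with 7.36, 8.02 and 8.13 CPM in sons whose parents were both dose 2, near the control libraries.

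To ask whether the exposed parent's sex mattered, sons of dose 2 fathers were set directly against sons of dose 2 mothers. By edgeR 18 genes (0.0939%) differed, 11 higher (0.0574%) and 7 lower (0.0365%). Cplx1, which clamps vesicle fusion, was at 3.40, 2.59 and 2.36 CPM in sons of dose 2 fathers, against 8.02, 6.57 and 7.89 CPM in sons of dose 2 mothers (adjusted p 0.0114). Abcf1, a factor in translation initiation, was at 102, 93.3 and 87.7 CPM in sons of dose 2 fathers, against 124, 141 and 136 CPM in sons of dose 2 mothers. Neither gene overlapped between the groups, which the naming rule required, and they passed in 4 and 3 of the 6 fits without a library. Cmc1 was at 8.98, 9.85 and 6.85 CPM in sons of dose 2 fathers, against 3.63, 3.14 and 3.71 CPM in sons of dose 2 mothers. Ccr4, Carmil1, which regulates actin capping, and Lims2, a focal adhesion protein, were also lower in sons of dose 2 fathers. Mfap5, a microfibril protein, Myo5c, a myosin motor, Pm20d1, an enzyme of N-acyl amino acids, and Zfp729a were higher. Against control sons Cplx1, Carmil1, Mfap5 and Pm20d1 did not pass (edgeR, adjusted p 0.389, 0.187, 0.524 and 0.384). The other genes named here did, in the same direction. The count was 5, 0 and 9 without libraries A, B and C of dose 2 fathers, and 46, 3 and 0 without libraries A, B and C of dose 2 mothers. No member of the lists passed.

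Against sons of dose 1 fathers, 324 genes (1.69%) differed, 200 higher (1.04%) and 124 lower (0.647%) in sons of dose 2 fathers. Mrs2, a mitochondrial magnesium channel, was at 52.0, 39.4 and 31.9 CPM in sons of dose 2 fathers, against 3.77, 4.67 and 8.10 CPM in sons of dose 1 fathers (adjusted p 3.12e-06). Mog, a myelin protein, was at 0.0296, 0.201 and 0.0822 CPM in sons of dose 2 fathers, against 4.43, 7.01 and 7.79 CPM in sons of dose 1 fathers (adjusted p 3.19e-06). Both differences held with any 1 library left out. Neither gene passed against control sons (edgeR, adjusted p 0.439 and 0.331). Phyhip was at 24.7, 19.4 and 12.3 CPM in sons of dose 2 fathers, against 1.40, 1.11 and 1.02 CPM in sons of dose 1 fathers, and passed in 1 of the 6 fits. The protocadherin gene Pcdh9, the zinc-finger gene Zfp990 and Cyp21a1, the steroid 21-hydroxylase, were higher too. Phyhip and these genes did not pass against control sons (edgeR, adjusted p from 0.108 for Zfp990 to 0.629 for Cyp21a1). Zfp981, Zfp991, Zfp992 and Znf41-ps were lower, as they were against control sons. Zfp981 stood at 0.768, 0.948 and 0.493 CPM in sons of dose 2 fathers, against 13.9, 13.4 and 14.1 CPM in sons of dose 1 fathers. Zfp981, Zfp991 and Zfp992 passed in 1 of the 6 fits without a library and Znf41-ps in 0. The count was 106, 83 and 350 without libraries A, B and C of dose 2 fathers, and 196, 76 and 92 without libraries A, B and C of dose 1 fathers.

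Among list members, Dctn3 averaged 24.7 CPM in sons of dose 2 fathers against 48.5 CPM in sons of dose 1 fathers (-0.97 ± 0.21, adjusted p 0.0301). Lyz2, a lysozyme of macrophages, averaged 16 CPM in sons of dose 2 fathers and 9.18 CPM in sons of dose 1 fathers (0.80 ± 0.14, adjusted p 0.00592). Zfp57, a zinc-finger protein that protects imprints, averaged 36.4 CPM in sons of dose 2 fathers and 21.6 CPM in sons of dose 1 fathers (0.75 ± 0.13). Lyz2 and Zfp57 did not pass against control sons (adjusted p 0.149 and 0.714). Of the genes that changed against control sons, 45 of the 584 higher and 37 of the 435 lower ones also differed from sons of dose 1 fathers in the same direction, and 5 and 1 in the opposite one. These comparisons share the libraries of dose 2 fathers.

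Against sons whose parents were both dose 2, 29 genes (0.151%) differed, 13 higher (0.0678%) and 16 lower (0.0834%). Chd1l, a chromatin remodeller, was at 53.3, 53.7 and 56.9 CPM in sons of dose 2 fathers, against 129, 122 and 111 CPM in sons whose parents were both dose 2 (adjusted p 0.000103). Adgrg7 was at 19.6, 16.5 and 16.4 CPM in sons of dose 2 fathers, against 7.36, 8.02 and 8.13 CPM in sons whose parents were both dose 2 (adjusted p 0.000403). Mid1, a microtubule-bound ubiquitin ligase, was at 7.92, 7.93 and 7.29 CPM in sons of dose 2 fathers, against 27.1, 26.5 and 33.1 CPM in sons whose parents were both dose 2. These 3 genes and Wdr49, which was higher, passed with any 1 library left out. Psmg4, a proteasome assembly chaperone, was higher, and the peptide hormone genes Pyy and Chga and the antisense gene Zbtb11os1 were lower. Against control sons Chd1l, Mid1, Wdr49, Psmg4 and Pyy did not pass (edgeR, adjusted p from 0.072 for Pyy to 0.656 for Chd1l). Adgrg7, Chga and Zbtb11os1 did, in the same direction. The count was 15, 11 and 31 without libraries A, B and C of dose 2 fathers and 22, 14 and 83 without libraries A, B and C of sons whose parents were both dose 2.

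The generations were compared through F1 males exposed to dose 2 and their own controls, which share no library with the F2 males. In F1 testis 419 genes (2.22%) differed, 109 (0.578%) higher and 310 (1.64%) lower in dose 2 males. Of 578 genes higher in sons of dose 2 fathers and tested in both generations, 6 were also higher in F1 dose 2 males, 1.04% of them and 5.5% of the 109. The share of all these genes that was higher in F1 was 0.581%. Of 433 lower genes 1 was also lower in F1, 0.231% of them and 0.324% of 309, against 1.65% of all. The shared gene that was lower was 4933414I15Rik. The shared higher genes were Iqca1l, 4933406C10Rik, Tmem63c, Leng8, Astx5 and Pla2g4d. Leng8, an RNA-processing protein of the leukocyte receptor cluster, was at 421, 430 and 427 CPM in F1 dose 2 males, against 340, 336 and 290 CPM in F1 control males (0.40 ± 0.09), and differed by 0.49 ± 0.12 in the F2 comparison. Pla2g4d, a cytosolic phospholipase A2, was at 11.7, 13.5 and 16.3 CPM in F1 dose 2 males, against 9.10, 8.87 and 8.83 CPM in F1 control males (0.63 ± 0.13), and differed by 0.66 ± 0.18 in the F2 comparison. Another 5 and 2 genes changed in opposite directions. Cyp17a1 was at 477, 416 and 359 CPM in F1 dose 2 males, against 512, 540 and 483 CPM in F1 control males (-0.29 ± 0.10, adjusted p 0.118). The F1 count was 16, 6 and 222 without libraries A, B and C of F1 dose 2 males and 12, 117 and 41 without libraries A, B and C of F1 control males.

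In the ovaries of daughters of dose 2 fathers, 1 gene (0.00575%) of 17399 passed against daughters of control parents, and 2769 had an unadjusted p under 0.05. It was Metrnl, a secreted factor of muscle and fat, at 74.9, 98.5 and 79.0 CPM in daughters of dose 2 fathers, against 44.0, 41.4 and 42.6 CPM in daughters of control parents (0.98 ± 0.12, adjusted p 0.0145). In testis Metrnl was at 2.51, 2.07 and 2.47 CPM in sons of dose 2 fathers, against 1.6, 2.09 and 2.12 CPM in sons of control parents (0.28 ± 0.20, adjusted p 0.415). No gene that passed in testis passed in ovary. The ovary count was 123, 0 and 1 without libraries A, B and C of daughters of dose 2 fathers and 3, 0 and 0 without libraries A, B and C of daughters of control parents, and DESeq2 gave 371. Amotl2 was at 76.2 ± 7.7 CPM in ovaries of daughters of dose 2 fathers and at 82.1 ± 13.2 CPM in those of daughters of control parents (SD, n = 3 each, log2 difference -0.11, adjusted p 0.88).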

How the data were processed

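The deposited values are raw counts per gene, made by the authors, in 1 table a tissue. The labels' protocols name TRIZOL extraction, a stranded mRNA kit and reads of 100 nt. Per the submitters' processing notes, TopHat2 2.1.1, Bowtie2 2.4.5, SAMtools 1.13 and featureCounts 2.0.3 were used on mm39. For featureCounts the strand option and annotation release were not given, and antisense or overlapping genes are therefore uncertain. Rows without a gene ID (0.319 to 0.377% of testis counts) were left out.

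The 18 F2 testis libraries were fitted together in edgeR 4.0.16 (R 4.3.3; quasi-likelihood, TMM, minimum count 10) and p-values adjusted by Benjamini-Hochberg over all tested genes, with a threshold of 0.05. The 9 F1 testis and 18 F2 ovary libraries had fits of their own. Fold changes are log2 ± SE. CPM use TMM-scaled library sizes. On simulated counts this comparison recovered 53.7% of 1.5-fold, 94% of 2-fold and 98.5% of 4-fold changes (19020 genes, 3 unchanged genes passed). Changes were put only in genes with a mean of at least 1 CPM, and counts were drawn for each gene alone, without shifts shared across a library. Single libraries moved the real count widely, so these rates may not hold for the real libraries.

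Genes named were the 12 largest changes each way, the 6 smallest p and 5 each way for direct differences, among genes with a mean of at least 1 CPM, no predicted name and no overlap between groups. List members, up to 4 a list (2 where none passed), were named without those filters. For the overlap with F1 and for runs of neighbours, members were named as found, except 1 that is not reported here. Other genes, such as Fdxr, Hsd17b3, Star, Prdx3, Gstm1, Pnpla2 and Esr1, were picked after their values were seen. Members and lists were chosen with earlier results of these data known. Of 36 lists, the mitochondrially encoded one was not analysed here. Alternatives were DESeq2 1.42.0, RLE factors, no low-count filter, a replicate block, other sets of libraries and each library left out. Start regions come from RefSeq by gene ID, and Cyp17a1 and Nr5a1 had none. No libraries agreed within sampling noise (lowest chi-square per gene 3.25).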

Additional observations from a re-analysis of the deposited data

Results flagged for a closer look

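The direct differences between crosses passed edgeR's test of the difference itself, so they are repeated here as log2 values with sons of dose 2 fathers on top. Against sons of dose 2 mothers 18 genes differed, among them Mfap5 (1.49), Cmc1 (1.29), Myo5c (1.16), Pm20d1 (0.90), Zfp729a (0.90), Cplx1 (-1.43), Ccr4 (-1.37), Carmil1 (-0.89), Lims2 (-0.75) and Abcf1 (-0.50). Against sons of dose 1 fathers 324 genes differed, among them Zfp990 (5.09), Phyhip (3.98), Pcdh9 (2.94), Mrs2 (2.91), Cyp21a1 (2.47), Mog (-5.89), Znf41-ps (-4.26), Zfp981 (-4.23), Zfp991 (-4.06) and Zfp992 (-2.55). Against sons whose parents were both dose 2 29 genes differed, among them Wdr49 (2.48), Adgrg7 (1.16), Psmg4 (0.96), Mid1 (-1.91), Pyy (-1.48), Chd1l (-1.14), Zbtb11os1 (-1.11) and Chga (-1.10). Cyp21a1 was at 44.2, 25.5 and 7.62 CPM in sons of dose 2 fathers, against 3.54, 3.99 and 6.46 CPM in sons of dose 1 fathers, and passed in 1 of the 6 fits without a library.

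Among 67 tested rows without a gene ID, which the comparisons above leave out, 2 passed when they were kept: Armc4 (0.26 ± 0.07, adjusted p 0.037) and Gm14781 (0.46 ± 0.13, adjusted p 0.0483), both higher in sons of dose 2 fathers.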

How the results depend on the processing

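The count of 1019 genes was 1875 with DESeq2 and 459 when only the 6 libraries entered the fit, and 78 to 3106 with 1 library left out. List members that passed, 57, were 103 with DESeq2 and 37 with only the 6 libraries, and 4 to 145 with 1 library left out. The count against sons of dose 2 mothers was 95 with DESeq2, 63 with only the 6 libraries and 6 with all 27 testis libraries, and 0 to 46 with 1 library left out. Against sons of dose 1 fathers it was 718 with DESeq2 and 886 with only the 6 libraries, and 76 to 350 with 1 left out. Against sons whose parents were both dose 2 it was 174 with DESeq2 and 12 with all 27, and 11 to 83 with 1 left out. The F1 count was 1929 with DESeq2, 2127 with only the 6 libraries and 1308 with all 27, and 6 to 222 with 1 left out. The ovary count was 371 with DESeq2 and 0 with all 27, and 0 to 123 with 1 left out. The cause was not tested. None of the 111 gene results that were recomputed (83 in the main comparison, 28 in the direct differences) reversed its direction under any alternative run. All had been picked because they passed, and the 28 and many of the 83 also for lack of overlap between groups. A reversal was therefore unlikely from the start, and its absence says little. The other genes named were not recomputed. DESeq2 kept 81 of those 83 genes, the fit of the 6 libraries 45.

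The replicate letters were not taken to pair the libraries, since no set of 3 same-letter correlations of deviations was above 0.1 throughout. They were -0.00845, 0.019 and 0.0854 in the main F2 testis comparison, 0.023, 0.0678 and 0.105 in F1 testis and 0.215, 0.0676 and 0.187 in F2 ovary. In ovary each was above every correlation between different letters (highest 0.0318), a hint from the data and not the design. The same held between sons of dose 2 fathers and sons of dose 2 mothers, at 0.0376, 0.0264 and 0.033 (highest between different letters 0.0249). It did not hold in the other comparisons. With the letter as a replicate block 1268 genes passed in place of 1019, 11 in place of 18 against sons of dose 2 mothers, and 167 in place of 419 in F1 testis, and the ovary count stayed at 1.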

Other observations

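Several further gene groups, listed after the data were seen and so only described, held members that passed in sons of dose 2 fathers against sons of control parents. Of 52 lysosomal genes 12 were lower and none higher (edgeR, 23.1% against 2.27% of all genes, median -0.23), among them Gm2a, the activator of ganglioside breakdown (-0.34 ± 0.06), Lgmn, the protease legumain (-0.41 ± 0.09), and Psap, the precursor of the saposins (-0.34 ± 0.08). Of 36 genes of folding and export in the endoplasmic reticulum 11 were lower (30.6%), including Surf4, a cargo receptor (-0.29 ± 0.05), P4hb, a disulfide isomerase (-0.29 ± 0.06), and Calr, a calcium-binding chaperone (-0.20 ± 0.06). Of 31 genes of glycolysis and the pentose phosphate pathway 9 were lower (29%), including Pgam1 (-0.42 ± 0.07), Pfkl (-0.61 ± 0.13) and Tkt (-0.46 ± 0.12). Fth1 and Ftl1, the ferritin chains, were lower (-0.41 ± 0.08 and -0.47 ± 0.13). Gapdh, often used as a reference gene, was lower as well (-0.33 ± 0.09).

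Of 48 cilium genes 10 were higher (20.8%, against 3.05% of all genes) and 1 lower, while 28 lay above 0 and the median was 0.05, with Cep290, a transition zone protein (0.54 ± 0.11), and Ift88, a carrier of intraflagellar transport (0.22 ± 0.06), among the higher ones and Ift27 lower (-0.35 ± 0.09). Of 40 mitosis and kinetochore genes 9 were higher (22.5%) and 2 lower, while 24 lay above 0, with Kif18a, a kinesin (0.43 ± 0.09), and Knl1, a kinetochore scaffold (0.44 ± 0.12), higher and Nek2 (-0.21 ± 0.06) lower. Among 390 genes whose symbol begins with Zfp, 25 were higher (6.41%) and 6 lower (1.54%), against 3.05% and 2.27% of all genes. Like the other counts, these rested on single libraries. Without libraries A, B and C of dose 2 fathers 1, 1 and 6 lysosomal genes passed, and without libraries A, B and C of control parents 1, 20 and 1. The endoplasmic reticulum count was 2, 0 and 7 without libraries A, B and C of dose 2 fathers, and 1, 12 and 0 without those of control parents. The glycolysis count was 2, 1 and 6 without libraries A, B and C of dose 2 fathers, and 1, 15 and 1 without those of control parents. The cilium count was 0, 0 and 11 and the mitosis count 0, 0 and 9 without libraries A, B and C of dose 2 fathers. Without libraries A, B and C of control parents the cilium count was 0, 17 and 0 and the mitosis count 0, 20 and 0. Of the Zfp symbols 1, 2 and 33 passed without libraries A, B and C of dose 2 fathers and 2, 91 and 3 without those of control parents.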
